A study of Mus musculus with 4 samples.

Results

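Tenocyte-like cells are the candidate tendon fibroblasts among dissociated fetal leg muscle cells, and 2345 of the 36969 kept cells met their definition. A cell was counted when it held at least 2 unique molecular identifiers (UMIs, 1 per captured transcript) of *Tnmd* and a UMI of at least 2 of *Scx*, *Mkx*, *Kera* and *Thbs4*. It also had to show fewer than 4 of the 7 cartilage genes *Col2a1*, *Col9a1*, *Col9a2*, *Col9a3*, *Cnmd*, *Hapln1* and *Ucma*, and no UMI of *Myog* (muscle) or *Cdh5* (endothelium). The members were thus chosen by the measured counts of these genes. The levels of these genes, and the levels of any gene in these cells beside other cells of the same libraries, are therefore descriptions with no test. Tests compared genotypes only, among them tests of whether the genotype difference was unlike that in fibroblasts.

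Droplet single-cell RNA sequencing was performed on leg muscles of E18.5 (late embryonic) fetuses, in 2 wild-type (WT) and 2 *SYISL* knockout (KO) libraries. *SYISL* is a long non-coding RNA transcribed from within *Synpo2*, and WT and KO fetuses were littermates from matings of heterozygous mice, so all mothers carried a KO allele too. No treatment was given for these fetuses in the sources used here, and a restriction of the KO to a cell type was not stated. The 2 libraries of a genotype were described as biological replicates, but the number of fetuses in each was not stated, so p-values measure the spread between libraries.

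Tendon joins muscle to bone, and its fibroblasts, the tenocytes, lay down parallel fibrils of type I collagen. In the embryo, the transcription factor Scx marks tendon progenitors, Mkx acts in the build-up of the fibrils, and the membrane protein tenomodulin (Tnmd) is a marker of the differentiated tenocyte. Small leucine-rich proteoglycans such as fibromodulin and keratocan bind the fibrils and regulate their diameter.

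The stretches before the RefSeq transcription start are shown for *Tnmd*, which defined the cells, and for the matrix genes *Fmod* and *Col11a2*. The latter were picked for their higher level in members with high than with low *Tnmd*. A common control of these genes was not tested. Each is the 250 bases before the RefSeq start on the plus strand (GRCm38.p6), with the E-box CANNTG, the motif bound by basic helix-loop-helix factors such as Scx, in capitals. GENCODE vM21 starts *Tnmd* at 133850980, inside the stretch shown, and *Col11a2* at 34039437, beyond the end of its stretch. Distances are from the RefSeq starts. CANNTG reads the same on both strands and was present in 66.2% of all 32851 RefSeq promoters cut to the same length.
*Tnmd*, chrX:133850758-133851007: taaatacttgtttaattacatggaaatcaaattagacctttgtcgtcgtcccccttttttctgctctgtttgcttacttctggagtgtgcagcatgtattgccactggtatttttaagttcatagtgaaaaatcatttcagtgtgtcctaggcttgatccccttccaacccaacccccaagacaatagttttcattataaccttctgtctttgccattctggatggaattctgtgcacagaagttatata
*Fmod*, chr1:134037004-134037253: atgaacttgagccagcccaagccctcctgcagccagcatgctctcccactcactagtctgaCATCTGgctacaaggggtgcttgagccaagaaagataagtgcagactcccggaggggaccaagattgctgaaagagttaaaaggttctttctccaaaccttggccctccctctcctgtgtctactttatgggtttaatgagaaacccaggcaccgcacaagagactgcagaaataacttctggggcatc
*Col11a2*, chr17:34038888-34039137: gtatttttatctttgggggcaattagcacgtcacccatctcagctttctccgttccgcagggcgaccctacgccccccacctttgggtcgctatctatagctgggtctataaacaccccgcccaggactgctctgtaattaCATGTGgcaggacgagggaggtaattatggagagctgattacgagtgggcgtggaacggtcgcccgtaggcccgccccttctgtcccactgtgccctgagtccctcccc
No CANNTG was found in the *Tnmd* stretch and 1 in each of the others, CATCTG beginning 189 bases before the *Fmod* start and CATGTG beginning 109 bases before that of *Col11a2*. CATCTG or its reverse complement CAGATG occurred in 14.4% of all promoters of this length. These are matches of letters and no evidence of binding.

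Of the kept cells, 4429 held a *Tnmd* UMI and 3286 held at least 2. The requirement for 2 of the 4 other markers left 2649 cells, the cartilage limit 2540, the absence of *Myog* 2435 and the absence of *Cdh5* the final 2345. The cells just inside and just outside the thresholds were few on the *Tnmd* side and more numerous on the marker side. There were 94 members with exactly 2 *Tnmd* UMIs and 131 non-members with 1 that met the other criteria, against 518 members with exactly 2 of the 4 markers and 283 non-members with 1. The cartilage limit alone left out 91 cells, of which WT replicates 1 and 2 held 25 and 41 and KO replicates 1 and 2 held 2 and 23. All 4 markers were detected in 1042 members (44.4%).

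*Tnmd* stood at 1911 and 1641 CPM (UMIs of a gene per 1000000 UMIs summed over the cells) in the tenocyte-like cells of WT replicates 1 and 2, and at 1900 and 1635 CPM in those of KO replicates 1 and 2. *Scx* was at 516 and 468 CPM in WT and 521 and 429 CPM in KO. The WT and KO libraries overlapped for both genes. *Mkx* was at 198 and 207 CPM in WT and 176 and 155 CPM in KO, and *Kera*, encoding keratocan, at 840 and 803 CPM in WT and 710 and 711 CPM in KO. For these genes WT and KO values did not overlap, with KO lower, beside 30.0% of 13510 genes without overlap. Both genes also admitted the cells, and the KO members were shallower. The part of this in their levels was not tested. *Thbs4*, encoding thrombospondin 4 of the myotendinous junction, had the widest range of the 5, with 1515 and 1172 CPM in WT and 1745 and 1103 CPM in KO.

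After each cell was thinned to 5000 UMIs, *Tnmd* was detected in 97.7% of 2236 tenocyte-like cells, a share that the rule fixes, and in 1.48% of cells with a *Ptprc* UMI (leukocytes) and 2.23% of cells with at least 2 *Cdh5* UMIs (endothelium), whose median depths before thinning were 9587, 10472 and 10585 UMIs. Cells that met the rule were left out of the leukocytes, and with them any doublets of a leukocyte counted as members. The latter shares are thus levels in these classes, not the most that free RNA and doublets can reach. The label was set beside markers of other cell types, which the rule used only for muscle, endothelium and cartilage. Of the 7 cartilage genes, 1103 members (47.0%) held 0 and 156 (6.65%) held 3, the most that the rule allowed. *Col2a1* was at 112 and 156 CPM in WT and 95.1 and 118 CPM in KO. That was 11.6 to 39.9 times fibroblasts and 0.00766 to 0.0169 times chondrocyte-like cells, both defined below. The summed level of the endothelial list was 29.3 to 31.8 CPM (*Cdh5* at 0 by definition), and of the bone list 7.51 to 10.6 CPM. That of the myogenic list was 49.2 to 102 CPM (*Myog* at 0 by definition). All were below the remaining kept cells of the same libraries, but those include the cell types listed, so this is no check of the label. In the fibroblasts defined below, the endothelial list was lower in each library, at 24.8 to 27.7 CPM. The bone list (26.1 to 48.4 CPM) and the myogenic list (160 to 302 CPM) were higher there. Immune and glial transcripts were uneven, at 366 and 62.7 CPM in WT and 192 and 63.8 CPM in KO for the immune list, and 171 and 48.6 CPM in WT and 87.3 and 29.2 CPM in KO for the glial list. In fibroblasts the glial list was lower in each library, at 46.0 and 22.2 CPM in WT and 21.9 and 19.0 CPM in KO. The immune list there was at 90.2 and 37.4 CPM in WT and 154 and 113 CPM in KO, higher only in KO replicate 2. Hindlimb genes were present, with *Pitx1* at 34.2 to 44.5 CPM and *Tbx4* at 15.2 to 23.6 CPM.

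Deposited libraries held 9528 to 11670 cells and 109653824 to 126257094 UMIs, and the median depth of tenocyte-like cells was 10212 and 11093 UMIs for WT against 8477 and 8751 UMIs for KO. *Xist*, the transcript of the inactive X chromosome, was at 1143 CPM in the tenocyte-like cells of KO replicate 2 and at 0 to 0.147 CPM in the others, and the Y-linked *Ddx3y* was at 0.784 CPM in KO replicate 2 and 86.9 to 96.7 CPM in the others. Within the KO group, this pattern and the replicate cannot be told apart. *SYISL* has no row of its own name in the feature table, and its host *Synpo2* (chromosome 3, 123076519 to 123236149, minus strand, GRCm38) was at 5.30 and 8.27 CPM in WT and 8.02 and 5.49 CPM in KO, so the target gave no check of the labels. Libraries shared 21 to 41 barcodes per pair, 1 of them among the tenocyte-like cells.

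To see how these cells differ from their neighbours, their profile was set beside those of 11194 fibroblasts (at least 2 *Pdgfra* UMIs, *Dcn* or *Lum* detected, no *Tnmd*) and of 1569 chondrocyte-like cells (at least 4 of the 7 cartilage genes), library by library. The rule itself made this contrast, so it is a description. Among 3603 genes outside the rule with at least 50 CPM in tenocyte-like cells, 19 were at least 10-fold higher than in fibroblasts in all 4 libraries, and 18 were so against chondrocyte-like cells.

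The genes furthest above fibroblasts were of several kinds. *Fmod*, encoding the fibril-binding proteoglycan fibromodulin, was at 635 and 622 CPM in WT and 554 and 492 CPM in KO, and at 3.44 to 12.3 CPM in fibroblasts, a ratio of 50.5 to 161 over the 4 libraries. *Chst5*, a carbohydrate sulfotransferase of the family that sulfates keratan chains, was 66.6- to 108-fold higher. *Col13a1*, a transmembrane collagen of cell-matrix and neuromuscular junctions, was 27.7- to 65.9-fold higher and *Col11a2*, a chain of the minor fibril collagen XI, 24.6- to 46.0-fold higher. The Wnt-binding inhibitor *Wif1* was 17.6- to 66.2-fold higher, and *Cilp*, encoding a matrix protein of cartilage and tendon, 12.8- to 21.3-fold higher. The others named by this criterion were *Zfp185*, *Insc*, *Khdrbs2*, *Car10*, *Kirrel3* and *Itgbl1*, with lowest ratios of 14.6 to 46.0.

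Over all 22238 genes detected, 4253 were higher and 7253 lower than in fibroblasts in all 4 libraries, and the counts for the lists below stand beside these. The list counts include genes that chose the cells. These are *Kera* among the proteoglycans, *Tnmd* and *Thbs4* among the glycoproteins, and *Scx* and *Mkx* among the transcription factors. Each was higher than in fibroblasts in all 4 libraries, which the choice of cells favoured. Of the 10 fibril-forming collagens, 5 were higher and 3 lower than in fibroblasts in all libraries. *Col1a1*, the main chain of tendon collagen, was at 17733 and 18768 CPM in WT and 16776 and 17595 CPM in KO, a ratio of 2.25 to 2.68 to fibroblasts. *Col1a2* had a ratio of 2.03 to 2.50. *Col3a1*, the collagen of loose and young connective tissue, lay on the other side, with a ratio of 0.565 to 0.740, and *Col11a1* was 11.3- to 15.7-fold higher. *Col1a1*, *Col1a2* and *Col11a1* were higher, and *Col3a1* lower, in each library.

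The 13 small leucine-rich proteoglycans included 9 that were higher and 3 that were lower in every library. *Bgn* (biglycan) was 2.59- to 2.80-fold and *Ogn* (osteoglycin) 1.53- to 1.59-fold higher, whereas *Dcn* (decorin) had a ratio of 0.639 to 0.747. *Aspn* (asporin) lay at 1.00 to 1.53 times fibroblasts. *Lum* (lumican), which like *Dcn* could admit a cell to the fibroblasts, had a ratio of 0.241 to 0.305. Among 17 tendon glycoproteins 12 were higher and 4 lower, including *Sparc*, a collagen-binding protein, at 1.46 to 1.75 times and *Postn* (periostin) at 1.16 to 1.45 times fibroblasts.

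Enzymes that modify and cross-link collagen included 11 of 26 that were higher and 11 that were lower. *Serpinh1*, the collagen chaperone, had a ratio of 1.21 to 1.47, *Ppib* 0.992 to 1.10, *Pcolce* 1.34 to 1.50 and *P4hb* 0.903 to 1.05. *Lox*, which cross-links collagen, was 2.05- to 2.45-fold higher and was named after its values were seen. Of 13 elastic fibre genes 6 were higher and 6 lower. *Mfap4* was 2.68- to 3.61-fold and *Mfap2* 1.31- to 1.36-fold higher, *Eln* (elastin) had a ratio of 1.18 to 1.71 and *Fbn2* (fibrillin 2) of 0.630 to 0.807. Of 12 other collagens 6 were higher and 4 lower, among them *Col12a1*, a fibril-associated collagen, at 1.52 to 1.77 times, *Col6a3* at 1.05 to 1.24 times, *Col14a1* at 0.964 to 1.57 times and *Col6a1* at 0.664 to 0.834 times fibroblasts.

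Matrix-degrading enzymes and their inhibitors included 7 of 16 genes that were higher and 4 that were lower in every library. The serine protease *Htra1* was 8.73- to 10.6-fold higher, the membrane protease *Mmp14* 1.62- to 1.77-fold, and the inhibitors *Timp2* and *Timp3* 2.11- to 2.16-fold and 1.79- to 2.76-fold. Of 18 matrix receptors 9 were higher and 6 lower. *Itgb1*, the common integrin beta chain, had a ratio of 1.03 to 1.20, *Itgav* of 1.29 to 1.44, the hyaluronan receptor *Cd44* of 0.554 to 0.607 and the collagen receptor *Ddr2* of 0.729 to 0.818.

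Signalling genes of the transforming growth factor β (TGF-β) and bone morphogenetic protein (BMP) families, which recruit and maintain tendon progenitors, were higher than in fibroblasts in all libraries for 17 of 31 members and lower for 4. The ligand *Tgfb2* was 1.73- to 2.09-fold higher. The TGF-β-induced matrix protein *Tgfbi* was 6.31- to 12.2-fold higher, and the BMP targets *Id2* and *Id3* were 1.68- to 2.02-fold and 1.31- to 1.71-fold higher. Of 15 genes of fibroblast growth factor signalling 9 were higher and 1 lower, with *Fgfr1* at 1.07 to 1.18 times, *Fgfr2* at 1.06 to 1.27 times, and the feedback inhibitors *Spry2* at 0.799 to 1.17 times and *Spry1* at 0.481 to 0.651 times fibroblasts. Of 11 genes of the mechanical response 9 were higher and 1 lower. *Ccn1*, a target of the mechanically regulated factor Yap, was 1.40- to 1.77-fold higher, *Wwtr1* (Taz) 1.56- to 2.03-fold, *Tead1* 1.06- to 1.58-fold and *Piezo2*, a mechanically gated channel, 1.69- to 1.88-fold.

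Among 16 transcription factors known in tendon or cartilage, 11 were higher and 2 lower than in fibroblasts. *Egr1*, an early growth response factor that acts on tendon collagen genes, was at 1.14 to 1.44 times, *Klf2* at 1.11 to 1.68 times and *Klf4* at 0.499 to 0.630 times the fibroblast level. *Tcf7l2*, known from muscle connective tissue fibroblasts and named after its values were seen, had a ratio of 0.255 to 0.283. Immediate early genes, which rise during dissociation, were higher in 7 of 16 cases, with *Fos* at 1.16 to 1.45 times, *Jun* at 1.05 to 1.21 times, *Jund* at 1.12 to 1.28 times and *Junb* at 0.920 to 1.47 times. Of 19 genes of limb position 6 were higher and 10 lower, *Hoxa10* among them at 0.654 to 0.783 times.

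Among the genes furthest below fibroblasts, *Mfap5*, a microfibril protein, had a ratio of 0.0700 to 0.122, and *Nrxn3*, *Lvrn*, *Efemp1*, *Adarb2*, *Entpd2*, *Abca8a* and *Pi15* had highest ratios of 0.0514 to 0.113. Of 8 genes of the fibroblast list, which holds *Pdgfra* that defined the fibroblasts, 7 were lower, with *Clec3b* at 0.0757 to 0.133 and *Smoc2* at 0.0920 to 0.130 times. *Meox1* was the exception, 3.46- to 6.35-fold higher. Genes of the tendon sheath and interstitial fibroblasts were lower for 7 of 8 members, with *Tppp3* at 0.163 to 0.294, *Cd34* at 0.136 to 0.159, *Cd55* at 0.135 to 0.269 and *Has1* at 0.251 to 0.357 times. Only the joint lubricant *Prg4*, named after its values were seen, was higher, at 2.63 to 8.11 times.

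**Figure D1:**
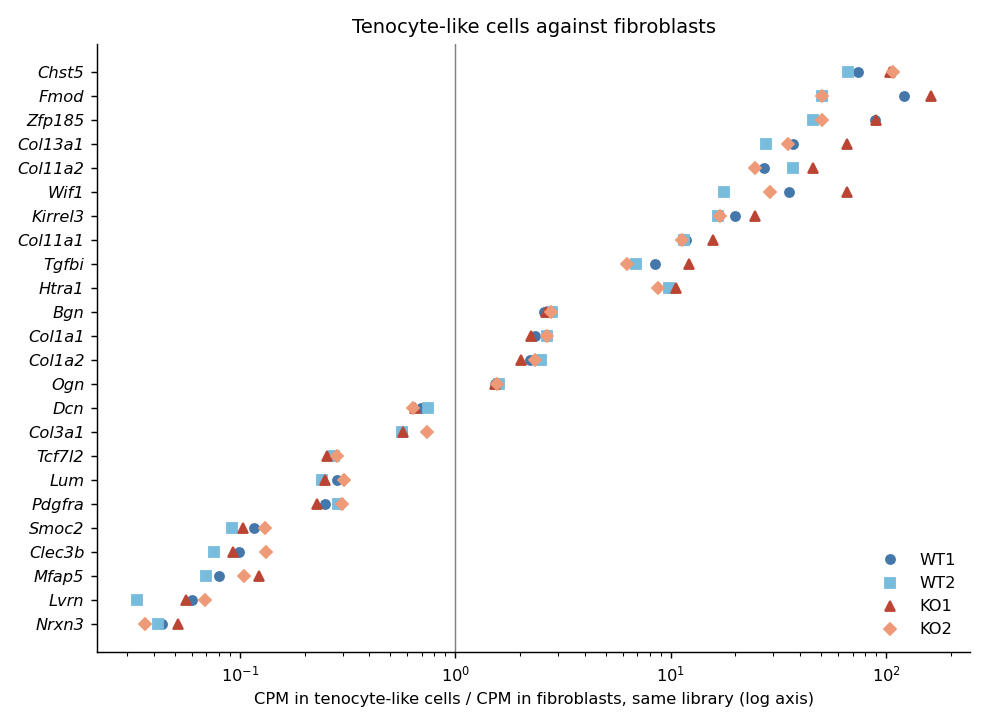
Ratio of CPM in tenocyte-like cells to CPM in fibroblasts of the same library on a log axis, for 24 genes, with 1 point per library. *Chst5* and *Fmod* lay at least 50.5-fold above fibroblasts in all 4 libraries, *Col1a1* 2.25- to 2.68-fold above, and *Mfap5* and *Nrxn3* far below.

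Chondrocyte-like cells were chosen by cartilage genes, so their own excess of these is partly fixed by the rule. *Matn1*, *Snorc*, *Cytl1* and *Msmp*, none of them in the rule, were at no more than 1.25 CPM in tenocyte-like cells and averaged 471 to 2718 CPM in chondrocyte-like cells. *Susd5*, *Matn3*, *Stk32b* and *Trpv4* were also lower in all libraries, with highest ratios of 0.00451 to 0.0168. *Acan*, encoding aggrecan, was at 106 and 158 CPM in WT and 75.2 and 150 CPM in KO, which was 10.8- to 34.2-fold above fibroblasts and 0.0731 to 0.147 times chondrocyte-like cells, and *Matn4* was 10.6- to 18.2-fold above fibroblasts. *Fmod* did not separate these classes, with a ratio of 0.750 to 1.02 to chondrocyte-like cells. Among the other genes named above for their excess over fibroblasts, *Col11a2*, *Wif1* and *Itgbl1* were lower than in chondrocyte-like cells, with ratios of 0.115 to 0.193, 0.348 to 0.477 and 0.535 to 0.645. *Sox9*, the chondrogenic factor of the tendon-bone attachment, had a ratio of 0.745 to 1.36 to fibroblasts. Over the list of 16 attachment and cartilage genes, 8 were higher and 4 lower than in fibroblasts in all libraries, and 0 were higher than in chondrocyte-like cells. The tenocyte-like cells exceeded chondrocyte-like cells in *Col13a1* (38.7- to 60.8-fold), *Meox1* (27.2- to 50.9-fold), *Chodl* (40.6- to 203-fold), *Zfp185* (19.9- to 29.0-fold), *Scube2* (16.6- to 108-fold), *Spock3* (18.4- to 30.0-fold), *Kirrel3* (18.0- to 67.2-fold), *Fat3* (16.0- to 53.6-fold) and *Spon2* (15.6- to 39.2-fold). *Ccdc85a*, *Khdrbs2* and *Col22a1* were higher as well, by lowest ratios of 15.3 to 44.2, where a chondrocyte-like library at 0 UMIs gave no ratio.

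The tenocyte-like cells were not uniform. To compare members at equal depth, 2236 members were thinned to 5000 UMIs (109 shallower members were left out) and divided by thinned *Tnmd* counts into a high group of 704 cells with more than 11 UMIs, a low group of 890 cells with 6 or fewer, and 642 between. Because *Tnmd* also admitted the cells, these values are descriptions.

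Between the high and the low group, 1084 of 20045 genes were higher and 2961 lower with high *Tnmd* in all 4 libraries. Of the fibril collagens 4 of 10 were higher and 4 lower, and of the small leucine-rich proteoglycans 7 of 13 were higher and 3 lower. The values that follow are ratios of the high to the low group. *Pcolce2*, an enhancer of procollagen processing, averaged 250 CPM in the high and 36.4 CPM in the low group, a ratio of 4.38 to 15.2 over the libraries. *Col11a2* averaged 162 and 34.2 CPM, with a ratio of 4.06 to 6.47. *Fmod*, *Chst5* and *Atp6v0a4*, a proton pump subunit, had ratios of 2.43 to 3.95, 2.67 to 3.47 and 2.55 to 6.08. All of these were higher in the high group in each library, and so were *Kera* at 2.47 to 3.05 and *Col1a1* at 1.52 to 1.71 times. *Scx* and *Mkx* followed *Tnmd* less steeply, at 1.17 to 1.48 and 1.18 to 1.70 times.

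Of the fibroblast list 7 of 8 genes, and of the cell cycle list 18 of 20, were lower in the high group in all libraries. *Dpt* (dermatopontin) averaged 61.9 CPM in the low and 3.15 CPM in the high group, and *Clec3b*, *Mfap5* and *Col6a6* averaged 57.7 to 130 CPM and 3.94 to 9.04 CPM. *Zfp385b* had a ratio of 0.130 to 0.267. *Top2a*, the topoisomerase of dividing cells, averaged 163 CPM in the low and 60.8 CPM in the high group, a ratio of 0.260 to 0.463. Each of these was lower in the high group in all 4 libraries.

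Cells were also divided by detection of each of the other markers. The rule required at least 2 of these in unthinned counts, so a member lacking a marker there had to hold at least 2 of the others. *Col11a2* averaged 128 CPM in the 1547 cells with a *Kera* UMI and 4.86 CPM in the 689 without, a ratio of 16.8 to 35.2. *Pcolce2*, the collagen-binding integrin chain *Itga2*, *Sema3d* and *Ecrg4* were also higher with *Kera*, by lowest ratios of 2.94 to 5.72, and *Ramp2*, *Sparcl1*, *Hmcn1*, *Ebf2* and *Lrrc17* were lower, by highest ratios of 0.441 to 0.519. With *Kera*, 10 of the 13 proteoglycans were higher and 0 lower in all libraries, and 0 of the 20 cell cycle genes were higher and 16 lower, beside 1527 higher and 2249 lower of 20698 genes. The proteoglycan count includes *Kera* itself, which the division fixed. With *Mkx* detected, *Col11a2*, *Pcolce2*, *Itgbl1*, *Prss35* and *Matn4* were higher by at least 1.66-fold in each library, and *Dlk1*, *Zeb2*, *Il1rapl2*, *Acta1* and *Mfap5* were lower.

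With *Scx*, 0 of the 10 fibril collagens were higher and 7 lower, and 0 of the 13 proteoglycans were higher and 8 lower, beside 1743 higher and 1781 lower of 20698 genes. By the rule, a member without *Scx* in unthinned counts held at least 2 of *Mkx*, *Kera* and *Thbs4*. This favoured *Kera*, itself 1 of the 13 proteoglycans, in the cells without *Scx*. The part of the rule in these counts was not tested. *Frem1*, *Ablim3*, *Pip5k1b*, *Lysmd2* and the neurotrophin receptor *Ngfr* were higher in the 1691 cells with *Scx*, by at least 2.44-fold in each library, whereas *Clec3b*, *Dpt*, *Smoc2*, *Ccn3* and *Col6a6* were lower, at no more than 0.321 times. *Clec3b*, *Dpt* and *Col6a6* were also lower with high *Tnmd*. *Col1a1* had a ratio of 0.791 to 0.952. *Thbs4* detection, in 1968 cells against 268, went with higher *Col22a1*, the collagen of the muscle-tendon junction, which averaged 52.7 and 0.962 CPM. It was listed at 0 UMIs without *Thbs4* in 3 of the 4 libraries. The cells without *Thbs4* numbered 52 and 84 in WT and 21 and 111 in KO, so the ratios of this division rest on few UMIs. *Car10*, *Cdh18*, *Col18a1* and *Kirrel3* were higher with *Thbs4* by lowest ratios of 4.70 to 5.95, and *Lum*, *Penk*, *Tcea3*, *Zfp804b* and *Il1rapl1* were lower at 0.0858 to 0.419 times.

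**Figure D2:**
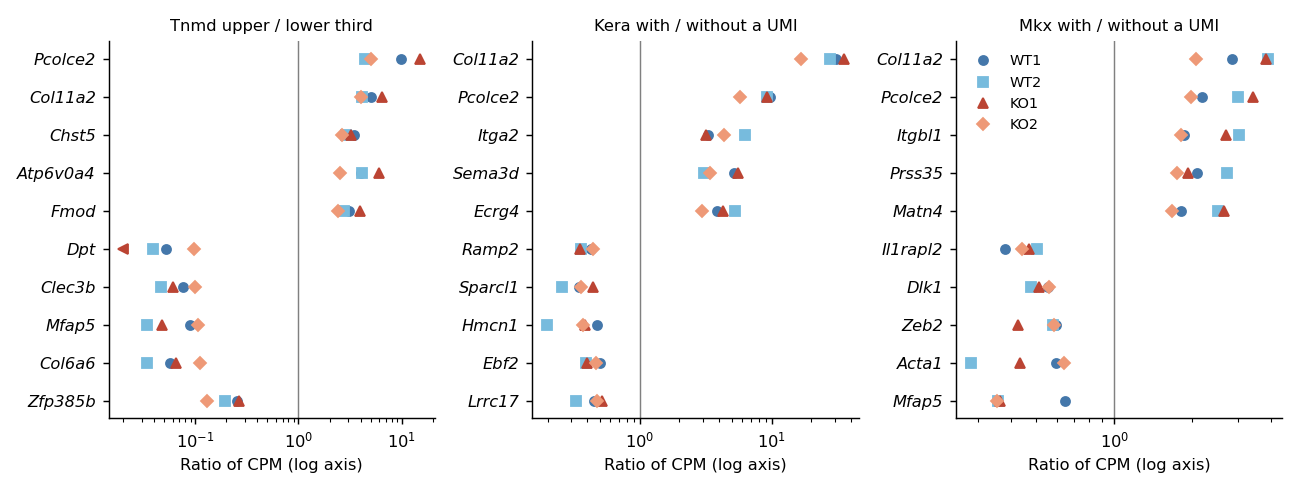
Ratio of CPM on log axes between groups of tenocyte-like cells thinned to 5000 UMIs, with 1 point per library: the high over the low *Tnmd* group (left), cells with over those without a *Kera* UMI (middle) and with over without an *Mkx* UMI (right). *Col11a2* and *Pcolce2* were higher in all 4 libraries in all 3 panels, and the triangle pointing left at *Dpt* marks a library with 0 UMIs in the high group.

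The combination of *Scx*, *Mkx*, *Kera* and *Thbs4* was detected in 52.3% and 47.7% of WT members and 44.5% and 34.4% of KO members. The remaining combinations were led by *Scx* with *Kera* and *Thbs4* (15.6% of members), *Scx* with *Thbs4* (11.8%) and *Scx* with *Mkx* and *Thbs4* (9.34%). These shares are of unthinned cells, and the KO members were shallower; the part of depth was not tested.

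The first question across genotypes was whether KO muscle held fewer of these cells. Tenocyte-like cells made up 7.09% (exact Clopper-Pearson 95% interval 6.56 to 7.66%) and 7.04% (6.50 to 7.62%) of kept cells in WT replicates 1 and 2, and 5.03% (4.61 to 5.48%) and 6.41% (5.95 to 6.90%) in KO replicates 1 and 2. The intervals cover counting error only. The genotypes did not overlap, with means of 7.07 ± 0.0348% and 5.72 ± 0.977% (SD, n = 2) and a difference of −1.35 percentage points. By exact permutation of the library labels the two-sided p was 0.333, which no comparison of 2 with 2 libraries can undercut, so by this test no share could pass a threshold of 0.05 (0.444 after Benjamini-Hochberg adjustment over 4 such comparisons). When the rule was applied to cells thinned to 5000 UMIs, the shares were 7.196% and 6.83% in WT and 4.89% and 5.83% in KO.

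Relative to fibroblasts the order did not hold. There were 22.6 and 22.6 tenocyte-like cells per 100 fibroblasts in WT and 15.4 and 24.4 in KO (exact permutation p = 1). KO replicate 1 alone was below WT, KO replicate 2 was above it, and without KO replicate 1 the difference of −2.70 became 1.80. With the stricter gate there were 18.2 and 17.3 per 100 fibroblasts in WT and 11.6 and 16.7 in KO, and with the rule on thinned cells 35.0 and 39.9 in WT and 22.9 and 35.1 in KO. The order of KO replicate 2 and WT thus turned on the rule. Chondrocyte-like cells, which share the dissected limb, numbered 285 and 502 in WT and 95 and 687 in KO, so KO replicate 1 was low in both classes. The part of this in the shares was not tested.

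**Figure D3:**
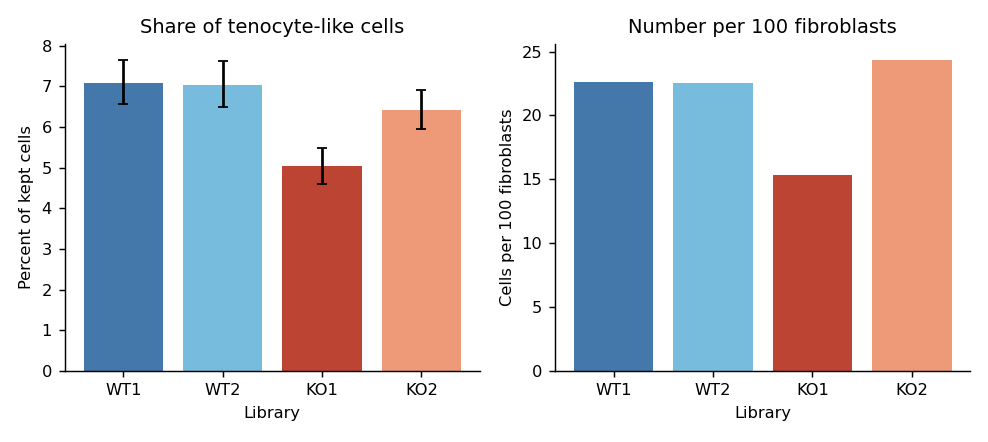
Left, tenocyte-like cells as percent of kept cells in each library, with exact 95% intervals. Right, their number per 100 fibroblasts. Both KO libraries were below WT on the left, and only KO replicate 1, at 15.4, was below WT on the right.

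Next, UMIs were summed over the tenocyte-like cells of each library and KO was compared with WT. With the edgeR quasi-likelihood test 0 of 13510 genes passed a Benjamini-Hochberg adjusted p of 0.05 (0% called). At an unadjusted p under 0.05, 198 genes were higher (1.47%) and 245 lower (1.81%), and DESeq2 called 1 gene. Leaving out any library leaves 1 library in a genotype, so the spread then comes from the other genotype alone. For such fits only effect sizes are given, and they also enter the closing summary counts over all alternatives. WT and KO libraries did not overlap for 30.0% of genes, with KO higher for 1561 of them and lower for 2494. The log2 difference was positive for 50.7% and negative for 49.3%.

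Genes were named by unadjusted p only among those averaging at least 10 CPM whose WT and KO libraries did not overlap. Of the 5 such lower genes of smallest p, 3 act in dividing cells, and none passed the test. *Mbnl1*, an RNA splicing regulator, was at 165 and 168 CPM in WT and 106 and 113 CPM in KO, a log2 difference of −0.58 (SE 0.09, unadjusted p = 0.000155, edgeR adjusted p = 1.00). Its log2 difference was −0.54 without KO replicate 1 and −0.62 without KO replicate 2. *Mki67*, the proliferation marker, was at 101 and 119 CPM in WT and 75.6 and 74.6 CPM in KO (log2 −0.52, SE 0.11). *Neil3*, a DNA repair enzyme of replicating cells, had a log2 difference of −0.65, *Pclaf*, a partner of the replication clamp, of −0.47, and *Hpse2*, a heparanase relative from the fibroblast list, of −0.63. The absence of overlap between WT and KO was a condition for naming them.

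The higher genes named under the same limits included macrophage transcripts. *Pf4* was at 12.1 and 7.83 CPM in WT and 104 and 37.8 CPM in KO, *C1qb* at 3.68 and 5.22 CPM in WT and 31.0 and 12.1 CPM in KO, and *Mrc1* at 7.37 and 3.77 CPM in WT and 39.2 and 15.8 CPM in KO. These transcripts sat in few cells. Of 1137 UMIs of *Pf4*, *C1qa*, *C1qb*, *C1qc* and *Mrc1* in the members of KO replicate 1, 1084 were in 6 cells with at least 10 such UMIs, and of 553 in KO replicate 2, 486 were in 2 cells. With cells called doublets by Scrublet left out, the log2 difference of *Pf4* was 0.80 instead of 2.83. The neutrophil genes *S100a8* and *S100a9* ran the other way, with 2121 of the 2147 UMIs of WT replicate 1 in 3 cells. The immune list had a median log2 difference of 0.77 over 12 genes tested, of which 8 did not overlap, beside 30.0% of all genes. *Ntrk2*, a neurotrophin receptor, at 28.3 and 27.8 CPM in WT and 41.2 and 44.2 CPM in KO (log2 0.63, SE 0.12), and *Adgrb3*, an adhesion receptor, at 28.4 and 29.3 CPM in WT and 45.7 and 38.9 CPM in KO (log2 0.57, SE 0.13), were the others, also not past the test. Without 1 library each, the log2 difference ranged from 1.95 to 3.41 for *Pf4* and from 1.46 to 2.82 for *C1qb*. It ranged from 1.53 to 2.88 for *Mrc1* and from 0.58 to 0.68 for *Ntrk2*.

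In the lists of matrix genes 0 genes were called, which does not show that they were alike. Beside their non-overlap counts stands 30.0% of all genes, with 1561 higher and 2494 lower of 13510. For the fibril collagens the median log2 difference was 0.05 over 10 genes, of which 5 did not overlap (2 higher and 3 lower), and for the small leucine-rich proteoglycans −0.10 over 13, of which 6 did not (1 and 5). The glycoproteins (17 genes, median 0.00, 2 higher and 3 lower), other collagens (12, −0.08, 0 and 1), collagen processing genes (25, −0.01, 1 and 6), elastic fibre genes (13, 0.04, 2 and 2), proteases (13, 0.04, 1 and 1) and matrix receptors (17, 0.00, 1 and 1) are given beside a median of 0.00 over all genes. *Aspn* was at 1097 and 810 CPM in WT and 1175 and 1239 CPM in KO (log2 0.37, SE 0.14). Chosen after their values were seen, *Fibin* was at 333 and 293 CPM in WT and 381 and 428 CPM in KO (log2 0.40, SE 0.10), *Fmod* had a log2 difference of −0.24 (SE 0.09) and *Pcolce2* of −0.45. Without 1 library each, the log2 difference ranged from 0.15 to 0.62 for *Aspn* and from 0.29 to 0.51 for *Fibin*. It ranged from −0.33 to −0.15 for *Fmod* and from −0.56 to −0.34 for *Pcolce2*.

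Regulatory and signalling lists also held 0 called genes, and their non-overlap counts stand beside the same 30.0% of all genes. The tendon factors had a median of −0.03 over 16 genes (0 non-overlapping higher, 2 lower), TGF-β and BMP genes −0.02 over 31 (2 and 8), fibroblast growth factor genes 0.04 over 15 (1 and 1) and mechanical genes 0.02 over 10 (2 and 2). The sheath list (8 genes, 0.09), attachment list (14, −0.11), limb list (18, −0.08), immediate early list (16, 0.01), bone list (1, −0.11), endothelial list (3, 0.12) and smooth muscle list (7, 0.18) held 0 called genes. The fibroblast list lay at 0.17 over 8 genes and the erythroid list at 0.20 over 4. The myogenic list was at 0.44 over 7 genes and the glial list at −0.57 over 5, on the low levels given above, again with 0 calls.

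Of 20 cell cycle genes tested 16 had a negative difference and 15 did not overlap (14 lower and 1 higher), beside 49.3% negative and 30.0% without overlap among all genes, and 7 had an unadjusted p under 0.05, beside 1.81%. The median log2 difference was −0.25. *Top2a* was at 189 and 218 CPM in WT and 143 and 153 CPM in KO (log2 −0.43, SE 0.10, edgeR adjusted p = 1.00). *Birc5*, of the chromosomal passenger complex, had a log2 difference of −0.27, *Cdk1*, the mitotic kinase, of −0.18, and *Ube2c*, which ends mitosis, of −0.17. The replication helicase genes *Mcm2*, *Mcm3*, *Mcm4* and *Mcm6* made up the 4 with a positive difference. None of the 20 passed the test with all libraries.

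In fibroblasts 19 of the same 20 had a positive difference, with a median of 0.25 and 0 called. *Mki67* in fibroblasts was at 88.0 and 95.4 CPM in WT and 103 and 115 CPM in KO. Whether the KO effect differed between the classes was tested with an interaction term and the library as a block, in which 1 of 17001 genes passed (0.00588%, the mast cell protease *Cpa3*). For the cell cycle list the median interaction was −0.55, 18 of 20 were negative, beside 49.6% of all genes (50.4% were positive), and 13 had an unadjusted p under 0.05, beside 2.44% of all genes, and 0 were called. *Cenpf*, a kinetochore protein, was at 92.1 and 101 CPM in WT and 59.4 and 79.9 CPM in KO tenocyte-like cells, and at 76.9 and 81.6 CPM in WT and 95.5 and 109 CPM in KO fibroblasts. Its interaction was −0.84 (SE 0.11, edgeR adjusted p = 0.0587). *Mki67* had an interaction of −0.80 (adjusted p = 0.0587 with edgeR), *Hmmr* of −0.83, *Top2a* of −0.68 and *Prc1*, a spindle protein, of −0.62, the latter 3 with adjusted p of 0.0717 to 0.0868. The median interaction of the list was −0.62 without KO replicate 1 and −0.43 without KO replicate 2. With the stricter gate and all libraries, the interaction was −0.77 for *Mki67* (edgeR adjusted p = 0.0286), −0.76 for *Cenpf* (0.0357) and −0.84 for *Hmmr* (0.0437). The immediate early list of dissociation lay on the same side, with 12 of 16 genes negative in the interaction, a median of −0.19 and 5 lower at an unadjusted p under 0.05. Its part in the cell cycle values was not tested.

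**Figure D4:**
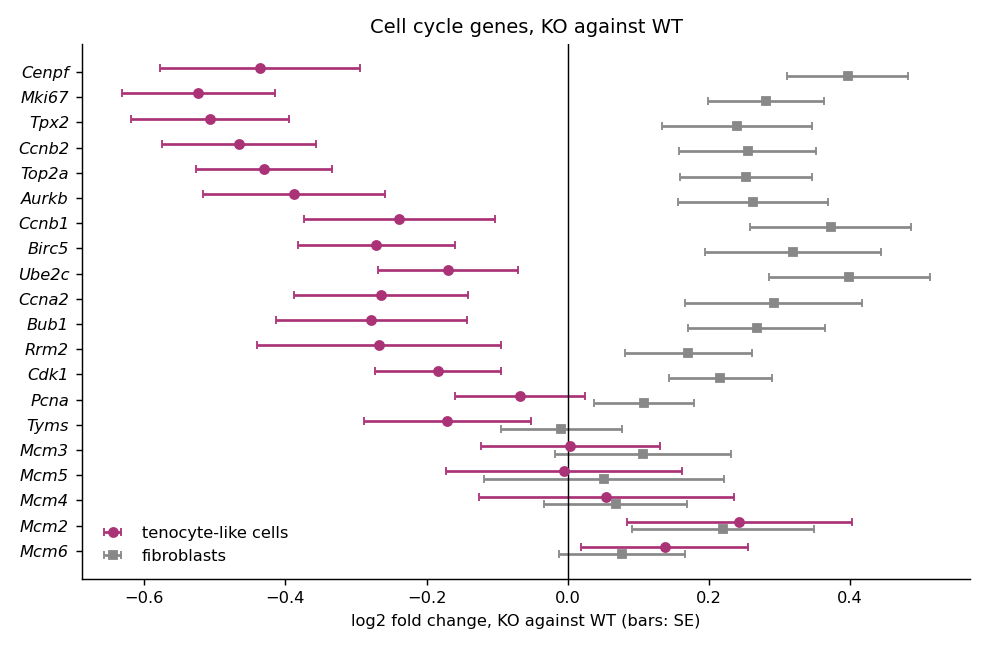
Log2 fold change of KO against WT for 20 cell cycle genes in tenocyte-like cells (circles) and fibroblasts (squares), with SE bars from edgeR over 2 libraries per genotype. In tenocyte-like cells 16 lay below 0 and in fibroblasts 19 lay above 0, and no gene passed the adjusted test in either class.

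In the interaction test the genes named on the positive side under the same limits were *Mgst3*, *Lgmn*, *C1qb*, *Ntrk2* and *Mfap5*. Their log2 values were 0.59 to 2.20, with edgeR adjusted p of 0.0895 to 0.149. *Mfap5* was at 67.2 and 49.7 CPM in WT and 101 and 75.9 CPM in KO tenocyte-like cells, and at 838 and 710 CPM in WT and 825 and 726 CPM in KO fibroblasts. Its WT and KO libraries did not overlap in tenocyte-like cells, which naming required, and overlapped in fibroblasts.

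Detection of *Top2a* or *Mki67*, genes transcribed in dividing cells, was counted per library after thinning each cell to 3000 UMIs. A UMI of *Top2a* or *Mki67* was found in 18.4% and 20.8% of WT and 16.7% and 16.4% of KO tenocyte-like cells, on 603, 576, 491 and 665 cells. KO was lower without overlap, by 3.07 percentage points between the means of 19.6 ± 1.71% and 16.5 ± 0.219% (SD, n = 2, exact permutation p = 0.333). Unthinned, the shares were 27.6% and 30.9% in WT and 23.9% and 23.5% in KO. In fibroblasts, thinned alike, they were 18.51% and 19.6% in WT and 20.5% and 23.3% in KO. The fibroblast genotypes overlapped in other settings, with 28.9% and 34.8% in WT and 30.6% and 35.4% in KO unthinned, and 13.8% and 16.7% in WT and 15.5% and 18.2% in KO when thinned to 1500 UMIs. Once cells with a UMI of *Pax7*, *Myod1*, *Acta1*, *Cdh5* or *Ptprc* were left out, the tenocyte-like genotypes overlapped as well, at 15.8% and 20.6% in WT and 15.2% and 16.2% in KO (exact permutation p = 0.667, an alternative added after the data were seen). The difference of tenocyte-like cells from fibroblasts of the same library, a comparison added after the data were seen, was −0.105 and 1.20 percentage points in WT and −3.77 and −6.88 percentage points in KO. It did not overlap between genotypes (exact permutation p = 0.333, adjusted 0.444).

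The level that free RNA gives was looked for in cells that should have stopped dividing, chosen after the data were seen and thinned to 5000 UMIs, at which 21.5% of members held such a UMI. The share was 25.0% of 228 cells with at least 5 UMIs of *Ckm*, the creatine kinase of muscle fibres, 15.8% of 38 with at least 20 and 0 of 14 with at least 50, which allows up to 21.4%. Of 108 cells with at least 10 UMIs of the neutrophil genes *S100a8* and *S100a9* it was 23.1%. Of 74 cells with at least 100 UMIs of the muscle gene *Mylpf* it was 13.5%. Of the 36 such cells with no *Pax7* UMI and at most 2 *Col1a1* UMIs, 0 held one, which allows up to 8.33%. Over 24 such cuts on marker genes, which included classes that may still divide, the share ran from 0% to 26.8%. These classes gave no common level for free RNA. The shares are read here as shares with a UMI, not as shares of dividing cells.

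Among the members thinned to 5000 UMIs, the share fell with *Tnmd* in every library. In the low group it stood at 31.0% and 30.8% for WT and at 25.5% and 23.6% for KO. In the group between it stood at 24.1% and 26.8% for WT and at 21.6% and 20.2% for KO, and in the high group at 14.9% and 12.2% for WT and at 11.5% and 9.43% for KO. Within each *Tnmd* group the KO values lay below the WT values without overlap. The low group held 34.3% and 44.5% of thinned members in WT and 35.1% and 44.3% in KO, so the genotypes overlapped in it.

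**Figure D5:**
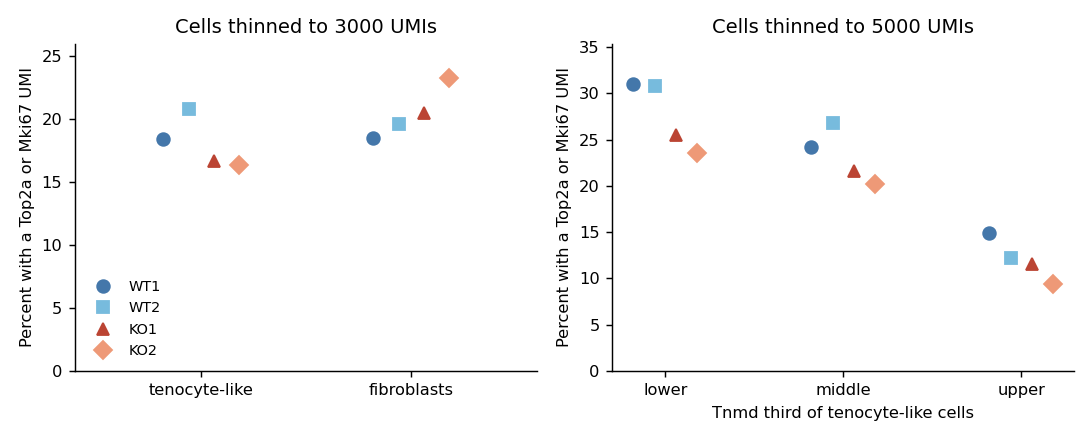
Percent of cells with a *Top2a* or *Mki67* UMI in each library, in tenocyte-like cells and fibroblasts thinned to 3000 UMIs (left) and in tenocyte-like cells thinned to 5000 UMIs by *Tnmd* group (right, lower to upper). KO libraries lay below WT in tenocyte-like cells and above WT in fibroblasts at this depth, and the share was lowest, 9.43% to 14.9%, in the group with the most *Tnmd*.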

How the data were processed

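Leg muscle cells of 4 libraries were profiled with 10x Genomics 3′ chemistry. Per the labels and methods, the authors aligned the reads to mm10 with Cell Ranger 7.2.0, and the deposited values are raw UMI counts per gene and cell, not normalised. No cell annotation was used. Whether intronic reads were counted was not given in the sources used here.

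Kept cells had between 1000 and 6000 genes, between 1000 and 25000 UMIs and less than 8% of UMIs from mitochondrial genes, and the rule stated with the results was applied to raw UMIs. The members and gene lists were chosen with earlier results of these data known. Doublets were removed (Scrublet in scanpy 1.11.5) only in an alternative, which marked 2.83% to 4.25% of members per library. CPM are UMIs of a gene per 1000000 UMIs summed over a class in a library. Sums were tested with edgeR 4.0.16 (quasi-likelihood, TMM, filterByExpr, R 4.3.3), adjusting p-values over all tested genes by the Benjamini-Hochberg method, and DESeq2 1.42.0 was an alternative. Genotypes were compared over libraries, and shares by exact two-sided permutation. In tests on simulated data with 200 genes changed 2-fold, 89.5% were recovered for KO against WT (13490 genes) and 64% for the interaction (17034 genes). The simulation gave all genes and both classes the same dispersion and no shared library effect. The changed genes were drawn above a minimum mean of UMIs. These percentages are therefore not the power in the real data. Replicates of a genotype differed beyond counting noise (chi-square per degree of freedom 3.21 in WT and 5.63 in KO).

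Named genes were the rule genes, the 4 highest of each list and any called, up to 10 called genes or else the 5 of smallest p per direction, 12 higher and 8 lower genes per profile comparison and 5 per direction in each split. Genes taken from a test, other than list genes, averaged at least 10 CPM with no overlap of WT and KO in tenocyte-like cells. Mitochondrial, ribosomal, Gm and Rik genes were not named. Coordinates are from GENCODE vM21 (GRCm38), promoters from RefSeq, where 244 of 338 list genes matched by symbol. Alternatives were other cell filters, gates, depths, size factors, gene filters, a replicate block and leaving out each library.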

Additional observations from a re-analysis of the deposited data

Results flagged for a closer look

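The KO effect on *Cpa3*, a protease of mast cells, differed between tenocyte-like cells and fibroblasts by the interaction test, with a log2 value of −3.63 (edgeR adjusted p = 0.00242). In tenocyte-like cells it was at 3.39 and 3.05 CPM in WT and 5.85 and 2.66 CPM in KO. Its KO increase lay in the fibroblasts, where 8 cells of KO replicate 1 and 3 cells of KO replicate 2 with at least 10 UMIs of *Cpa3* or *Cma1* held 3121 of 3402 and 1570 of 1761 such UMIs. The value was −1.52 (adjusted p = 0.997) with the rule on cells thinned to 5000 UMIs and −0.45 (adjusted p = 1.00) with the looser cell filter.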

How the results depend on the processing

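Both the lower share of tenocyte-like cells (−1.35 percentage points) and the lower share with a *Top2a* or *Mki67* UMI (−3.07) kept their direction under every alternative run. Without 1 library each, the first ranged from −2.04 to −0.654 and the second from −4.29 to −1.86. Per 100 fibroblasts the difference then ranged from −7.204 to 1.80, and it reversed only without KO replicate 1. The count of genes called for KO against WT (0) was 7 with the stricter gate, 1 with DESeq2, 17 without a filter on low counts, and 11 to 286 without 1 library. The fit with the replicate block gave 19. The replicate numbers share no stated source, and WT and KO libraries of the same number deviated together with a correlation of 0.20 over 13510 genes. The interaction count (1) was 15 with the stricter gate, 2 with the rule on thinned cells, 0 with the looser cell filter, and 1 to 78 without 1 library. The cause was not tested. The other alternatives that kept all libraries gave 0 and 1. The block brought *Pf4* (edgeR adjusted p = 0.000137), *Mrc1* (0.000604) and *Mbnl1* (0.0483) past the threshold. Without 1 library each, the median of the cell cycle list ranged from −0.28 to −0.17 of the immune list from 0.43 to 1.13 and of the glial list from −0.88 to −0.05 (0.15 with Scrublet doublets left out), whereas those of the fibroblast list (−0.07 to 0.32), myogenic list (−0.05 to 0.82), erythroid list (−0.93 to 0.65) and attachment list (−0.63 to 0.25) changed sign. Among all values for named genes and lists under the alternatives, 650 kept direction and side of the threshold, 75 list medians moved, 62 gene values passed and 2 no longer did. These counts include fits without 1 library, in which a genotype has no replicate. The number of genes 10-fold above fibroblasts (19) ranged from 17 to 22. With 2 libraries per genotype, no share can pass 0.05 by the exact permutation test, and a count of 0 calls does not show that genes were alike.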
